A study of Mus musculus with 9 samples.

Results

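The mammary tumour cell line 47298 was sequenced in a Jak1 knockout state, labelled Cre, and in a Jak1 wild-type state. These were 2 of the 9 libraries of a study of Janus kinase 1 in MMTV-neu mammary tumours, and each state of the line had 1 library. The comparison covered every gene with at least 5 FPKM (a fragment count scaled to library size and to the length of the transcript) in either library, apart from short noncoding RNA symbols starting with Mir, Snor, Scarna or Rnu. That left 9379 of the 24342 genes read. For each one the difference of log2(FPKM + 1), knockout minus wild type, was taken. A gene is called higher or lower below when this difference reached 1 on that scale, which for abundant genes is a fold of 2. With 1 library a side there was no estimate of the spread between cultures, so the values describe these 2 libraries and carry no p-value.

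The study used tumour-derived lines of FVB/N mice in which the mammary-specific MMTV promoter drives the neu oncogene. Lines 47298, 45555 and 45566B each had a knockout and a wild-type library, and all 6 were labelled as treated with puromycin. Line 46295 was sequenced as knockout only, and lines 33373 and 33377 as wild type only. The cultures were adherent, in serum-containing medium supplemented with hydrocortisone, insulin and epidermal growth factor. The sources used here do not say how the Cre cells were made, whether they are 1 clone or a pool, or which Jak1 exons were deleted.

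JAK1 is a tyrosine kinase bound to the receptors of interferons and of the interleukin-6 family that signal through gp130. After a ligand binds, it phosphorylates STAT proteins, which move to the nucleus. A complex that holds STAT2 and IRF9 switches on interferon-stimulated genes through ISRE elements. STAT3 switches on Socs3, Cebpd and acute-phase protein genes, often through GAS elements, and in the mammary gland it is best known for its part in involution.

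In the knockout library 821 genes were higher, 8.75% of those kept, and 1106 were lower, 11.8% of those kept. By 2 or more on the log2 scale, 217 genes were higher (2.31%) and 511 were lower (5.45%). The median difference was 0.02 and the standard deviation across genes was 1.08. The same standard deviation was 0.66 in line 45555 and 0.43 in line 45566B, so the libraries of 47298 lay farther apart than either of the other pairs. The knockout library of 47298 correlated across 10838 genes with its own wild type at a Pearson r of 0.852 and with line 33377 at 0.872. The wild-type library correlated with the 45555 wild type at 0.913. These are descriptions across genes, which are not replicates.

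**Figure D1:**
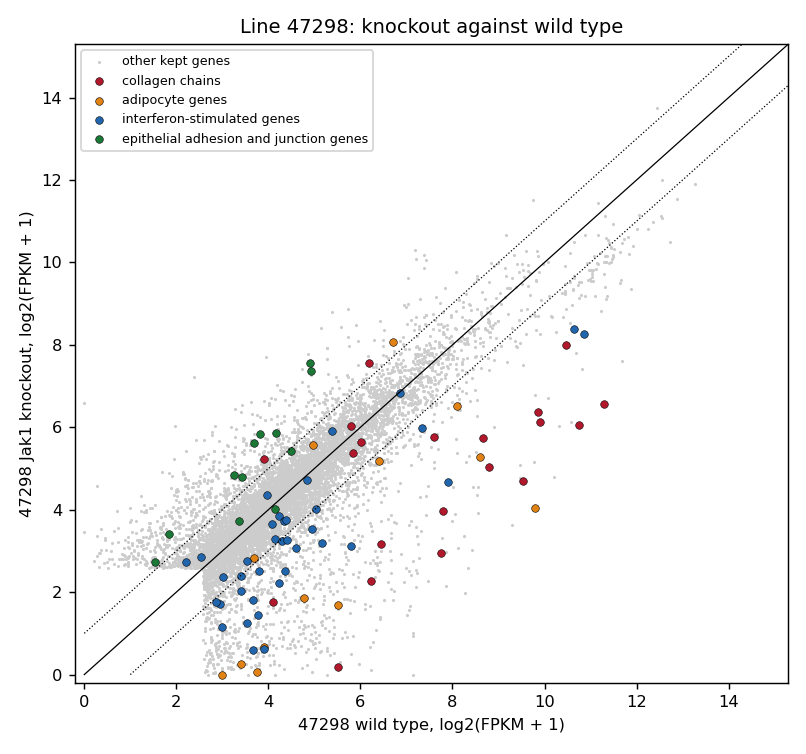
Each point is a kept gene, with its level in the 47298 knockout library on the y axis and in the wild-type library on the x axis, both as log2(FPKM + 1). The solid line marks equal levels and the dotted lines a difference of 1. Collagen chains and adipocyte genes lie mostly far below the line, interferon-stimulated genes moderately below it and epithelial adhesion genes mostly above it.

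The split between higher and lower genes depended on how the libraries were scaled. The FPKM summed to 571253 in the knockout library and to 721751 in the wild-type library. When both were rescaled to the same sum without short noncoding RNA genes, 1588 genes were higher and 742 lower, and the median difference was 0.40. Changes below are on the deposited scale, and for abundant genes adding about 0.40 to a difference gives its value on the other scale. One fragment was worth 0.0453 FPKM for a 1 kb gene in the knockout library and 0.0404 in the wild-type library, judged from the steps between low values. A gene at 5 FPKM with the median length of 2220 bases then held about 223 fragments in the knockout and 249.7 in the wild type. All 1882 called genes with a known length had a counting interval that did not hold 0. Genes were called for a difference of 1, which at such fragment numbers leaves little room for another result. It is therefore not a test of the calls. The counting interval covers counting error and not the difference between cultures.

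Jak1 itself stood at 27.5 FPKM in the knockout library and 63.1 FPKM in the wild-type library, a difference of -1.17. Ordered from the lowest difference up, Jak1 ranked 931 of the 9379 genes. Its transcripts remained at 2854 estimated fragments in the knockout, against 7342 in the wild type. In the other lines Jak1 was at 74.4 FPKM in the 45555 knockout against 86.7 in its wild type, and at 14.2 FPKM in the 45566B knockout against 16.1 in its wild type. A deposited value that sums over a whole gene can hold transcript that lacks the deleted exons, so the level does not measure the deletion. Jak1 lies on chromosome 4 (GRCm38 chr4:101152367-101265282, minus strand), whose genes were lower as a group in this library.

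Chromosomes 4, 10 and 12 were shifted as wholes. The median difference was -0.53 over the 532 kept genes of chromosome 4, -0.33 over 478 genes of chromosome 10 and -0.67 over 294 genes of chromosome 12. The other 17 chromosomes had medians from -0.03 to 0.15. On chromosome 12, 86.7% of genes had a difference below 0, as did 80.5% on chromosome 4 and 71.3% on chromosome 10, while the other chromosomes had 37.1% to 50.9%. Among genes with at least 20 FPKM in both libraries the medians were -0.43, -0.29 and -0.52 for chromosomes 4, 10 and 12. In line 45555 no chromosome median left the range from -0.10 to 0.01, and in line 45566B the range was -0.01 to 0.23, the top being chromosome 14. Chromosomes 4, 10 and 12 held 14.0% of the kept genes and 24.1% of the lower ones (265 of 1098 with a position).

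**Figure D2:**
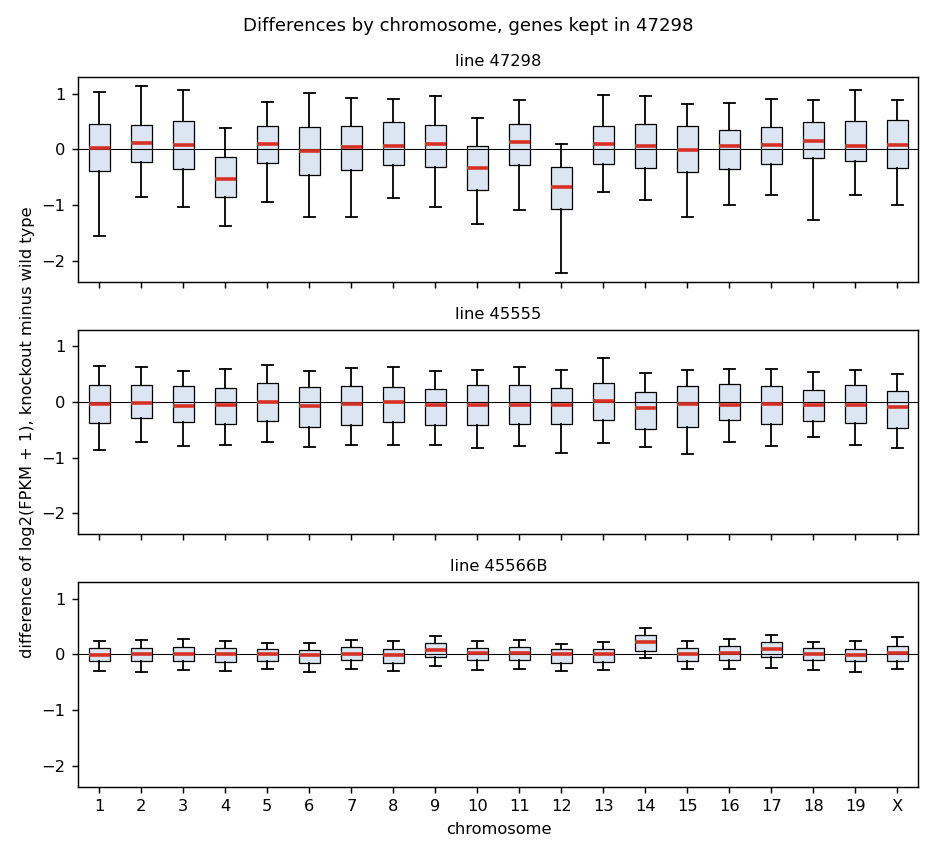
Boxes show the quartiles and whiskers the 10th and 90th percentiles of the difference of log2(FPKM + 1), knockout minus wild type, for the genes kept in 47298 on each chromosome, with the median in red. In line 47298 the boxes of chromosomes 4, 10 and 12 sit below the rest, with medians of -0.53, -0.33 and -0.67.

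Against the median of all 9 libraries, chromosome 12 stood at -0.91 in the 47298 knockout and at -0.24 in the wild type. Chromosome 4 stood at -0.26 in the knockout and 0.07 in the wild type, and chromosome 10 at 0 in the knockout and 0.32 in the wild type. Offsets of this kind were also present in other lines: chromosome 12 was at 0.90 in the 45566B knockout and 0.88 in its wild type. A stretch at the end of chromosome 7 from Polr2l to Mrgprf (chr7:141471860-145309557) went the other way, with a median of 0.70 over 27 genes, 21 of them above 0. In it lie Ccnd1, the G1 cyclin D1, Ano1, a chloride channel, and Ctsd, the lysosomal protease cathepsin D. Copy number of the DNA was not measured, and its part in these shifts was not tested. After each difference was centred on its chromosome's median, a step chosen after seeing the data, 784 genes were higher and 1017 lower, and Jak1 was at -0.64.

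Of the 12 JAK and STAT genes listed, 10 passed the level filter, and 5 of those were lower and none higher, with a median of -1.07 beside 0.02 over all kept genes. On the same-sum scale this median was -0.70. Jak2, the kinase of the hormone and cytokine receptors that act as homodimers, was at 12.1 FPKM in the knockout and 35.3 FPKM in the wild type (-1.47). Stat3 was at 46.0 FPKM in the knockout and 92.3 FPKM in the wild type, a difference of -0.99 that just missed the threshold. In the other lines the Stat3 difference was -1.76 in 45555 and -0.02 in 45566B. Stat5a, the STAT of prolactin signalling, went the other way, at 12.2 FPKM in the knockout and 6.33 FPKM in the wild type (0.85), and Tyk2 was at 13.9 FPKM in the knockout and 8.43 FPKM in the wild type (0.66). Of the receptors that use JAK1, 13 of 18 passed the filter, and 5 were lower and 1 higher. Lifr, the leukaemia inhibitory factor receptor, was at 0.769 FPKM in the knockout and 13.3 FPKM in the wild type. Osmr, the oncostatin M receptor, was at 24.5 FPKM in the knockout and 69.5 FPKM in the wild type. Ifnar1 and Ifnar2, the type I interferon receptor chains, differed by -0.01 and -0.06, and Il6ra, which binds interleukin-6, was higher at 37.0 FPKM in the knockout against 14.1 FPKM in the wild type.

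Among the inhibitors of the pathway, Socs3, which is induced by STAT3 and blocks gp130, was at 2.37 FPKM in the knockout and 24.1 FPKM in the wild type (-2.90). Usp18, which restrains the type I interferon receptor, was at 1.72 FPKM in the knockout and 12.6 FPKM in the wild type. Ptpn6, the phosphatase SHP-1, was the only higher one of the 12 that passed the filter, at 8.11 FPKM in the knockout against 0.518 FPKM in the wild type. The 9 others of this list differed by less than 1 either way.

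Interferon-stimulated genes were mostly lower. Of the 54 found in the table, 37 passed the filter, and 24 of those were lower and none higher, with a median of -1.25. Over all 54 the median was -1.04, and on the same-sum scale the median of those kept was -0.94. The largest differences were those of Ifi203, Lgals3bp, Sp100, Ifi204 and Ifitm3. Ifitm3, a membrane protein that blocks virus entry, was at 308 FPKM in the knockout and 1849 FPKM in the wild type (-2.58). Lgals3bp, a secreted glycoprotein that binds galectins, was at 24.5 FPKM in the knockout and 237 FPKM in the wild type (-3.22). Isg15, a ubiquitin-like modifier, was at 8.14 FPKM in the knockout and 34.8 FPKM in the wild type (-1.97). Irf7, a transcription factor of the interferon response, was at 2.49 FPKM in the knockout and 11.6 FPKM in the wild type, and Irf9 was at 7.35 FPKM in the knockout and 23.4 FPKM in the wild type. Bst2, which tethers budding virus, stood at 112 FPKM in the knockout and 116 FPKM in the wild type, and in line 45566B it differed by -4.61. Ifih1, Ifit2, Herc6 and Tor3a had differences of 0.32 to 0.54. Genes of the Ifi200 family resemble each other in sequence, so reads may be split between them and their single values are uncertain.

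The promoters of 4 lowered genes are shown because they hold an element through which the STAT proteins are known to act. A search of RefSeq promoters on GRCm38.p6, 250 bases before to 50 after the start, used, for the ISRE, GAAA, any 2 bases and GAAA, and for the GAS element TTCNNNGAA, on both strands. Of 32851 promoters, 3.44% held the ISRE letters and 8.30% the GAS letters. Of the kept interferon-stimulated genes, 28 had a promoter in the table, and 12 held the ISRE letters. Of those 12, 8 were lower, a share close to the 24 of 37 over the kept list. Of the kept STAT3 targets, 22 had a promoter in the table, and 2 held the GAS letters (9.09%, beside 7.86% of kept genes with a promoter), 1 of which was lower. Of the kept acute-phase genes, 11 had a promoter, and 3 held the GAS letters, 2 of which were lower. Each stretch runs 5′ to 3′ on the strand of its gene, with the match in capitals. They come from Ifi203 (chr1:173942488-173942557, minus strand, ISRE), Ifitm2 (chr7:140955968-140956037, minus strand, ISRE), Socs3 (chr11:117969482-117969550, minus strand, GAS) and Serpina3f (chr12:104214393-104214461, plus strand, GAS).
Ifi203: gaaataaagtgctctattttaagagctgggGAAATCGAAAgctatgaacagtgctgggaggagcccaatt
Ifitm2: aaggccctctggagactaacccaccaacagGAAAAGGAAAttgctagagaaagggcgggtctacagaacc
Socs3: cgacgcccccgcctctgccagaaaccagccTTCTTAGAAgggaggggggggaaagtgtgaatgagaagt
Serpina3f: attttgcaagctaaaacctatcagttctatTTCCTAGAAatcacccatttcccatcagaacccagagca
A match is a description of these letters and not a measured binding site. The start site used for Socs3, unlike those of the other genes printed, was not found in its transcript. The place of its stretch as a promoter is therefore less certain.

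Genes of MHC class I antigen presentation did not follow the interferon-stimulated genes. Of 27 listed, 21 passed the filter, and 4 were higher and none lower, with a median of 0.65. H2-K1, one of the classical heavy chains, stood at 278 FPKM in the knockout and 89.3 FPKM in the wild type (1.63). H2-D1, the other classical chain, was at 519.5 FPKM in the knockout and 213 FPKM in the wild type (1.29). H2-Q4 and the chaperone calnexin (Canx) were also higher, by 1.37 and 1.17. B2m, the shared light chain, stood at 997 FPKM in the knockout and 995 FPKM in the wild type, and the immunoproteasome subunit Psmb9 at 13.1 FPKM in the knockout and 11.7 FPKM in the wild type. The H2 genes share sequence, so their single values are uncertain. In the other lines the medians of this list were negative, and H2-K1 differed by -0.78 in 45555 and by -1.95 in 45566B. Among the genes best known as targets of interferon gamma, 9 of 26 passed the filter. Iigp1, Irgm2, Gbp3 and Gbp2 were lower, by 2.67, 1.60, 1.41 and 1.17 on the log2 scale, and the guanosine triphosphatase Irgm1 was higher at 102 FPKM in the knockout against 42.9 FPKM in the wild type. Irgm1 differed by -2.97 in line 45566B.

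STAT3 targets were lower in part. Of 31 listed, 27 passed the filter, and 11 were lower and 1, Ccnd1, was higher, with a median of -0.80 (-0.44 on the same-sum scale). Cebpd, a transcription factor induced in involution and by interleukin-6, was at 3.34 FPKM in the knockout and 58.1 FPKM in the wild type (-3.77). Bcl3, a nuclear partner of NF-kappaB, was at 4.96 FPKM in the knockout and 16.2 FPKM in the wild type (-1.53). Cebpd differed by -3.02 and Bcl3 by -1.79 in line 45555, and by 0.40 and 0.31 in line 45566B. Pim1, Klf4, Junb and Cebpb had differences from -0.30 to -0.80, and the survival genes Mcl1 and Bcl2l1 of 0.06 and 0.67. Fos (-2.63), Hif1a (-2.02) and Twist1 (-3.86), all in this list, lie on chromosome 12 with its median of -0.67.

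**Figure D3:**
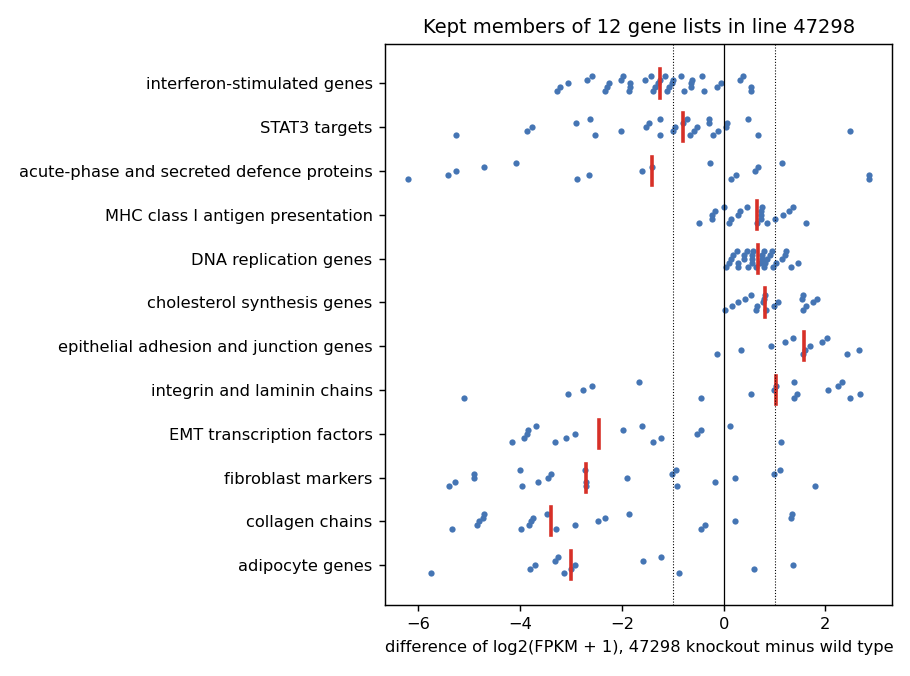
Points are the kept members of 12 gene lists by their difference of log2(FPKM + 1), 47298 knockout minus wild type, red bars are list medians and dotted lines mark differences of 1. Medians run from -3.38 for collagen chains to 1.58 for epithelial adhesion genes, and acute-phase proteins spread from -6.20 to 2.86.

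Acute-phase and defence proteins moved far in both directions. Of 27 listed, 17 passed the filter, with 9 lower and 3 higher. Ptx3, the long pentraxin of innate defence, was at 0.915 FPKM in the knockout and 139 FPKM in the wild type (-6.20). Il1rn, the interleukin-1 receptor antagonist, was at 7.10 FPKM in the knockout and 343 FPKM in the wild type (-5.41). Hp, the haemoglobin-binding protein haptoglobin, was at 1.10 FPKM in the knockout and 79.8 FPKM in the wild type (-5.26). Serpina3n, a serine protease inhibitor, was at 26.2 FPKM in the knockout and 711 FPKM in the wild type (-4.71), and its neighbours Serpina3m, Serpina3f and Serpina3g were lower too. They lie on chromosome 12 and resemble each other in sequence, so how reads were shared between them is uncertain. Cp, the copper carrier ceruloplasmin, went the other way at 1075 FPKM in the knockout and 147 FPKM in the wild type (2.86). Lbp, which hands bacterial lipopolysaccharide to its receptors, was at 343 FPKM in the knockout and 46.5 FPKM in the wild type (2.86), and Lcn2, an iron-siderophore binder, at 816 FPKM in the knockout and 369 FPKM in the wild type (1.14). In line 45555 Il1rn, Hp and Serpina3n were lower in the knockout as well, by 4.01, 2.63 and 4.12 on the log2 scale, but Cp and Lbp were lower there, by 2.59 and 3.10.

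Complement and cytokine genes were divided in the same way. Serping1, the C1 inhibitor, was at 1.64 FPKM in the knockout and 84.5 FPKM in the wild type (-5.02). Of 13 complement genes that passed the filter, 6 were lower and 2 higher. The chemokines Cxcl12, Ccl7 and Ccl2 were at 6.91, 6.12 and 12.1 FPKM in the knockout and at 231, 153 and 105 FPKM in the wild type. Ccl5 and Cxcl16 were higher, by 2.00 and 1.44. The signalling receptor for interleukin-1, Il1r1, was at 0.584 FPKM in the knockout and 72.5 FPKM in the wild type (-5.54), while Il33 was at 23.9 FPKM in the knockout and 4.68 FPKM in the wild type (2.13). NF-kappaB subunits were close to level: Nfkb1, Rela and Relb differed by -0.39, 0.18 and 0.10.

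Cell-type genes also differed widely. Neither library showed the defining epithelial genes: Epcam, the epithelial cell adhesion molecule, was at 0.581 FPKM in the knockout and 0.324 FPKM in the wild type, and Cdh1, E-cadherin, at 0.277 FPKM in the knockout and 0.210 FPKM in the wild type. In the 45566B libraries Epcam was at 681 FPKM in the knockout and 720.1 FPKM in the wild type. These markers of the mammary epithelium were therefore near 0 in both states of 47298, although simple keratins were present. Of the simple keratins, 3 were higher in the knockout and 1 lower. Krt8 was at 157 FPKM in the knockout and 38.5 FPKM in the wild type (2.00), and its partner Krt18 at 250.3 FPKM in the knockout and 52.7 FPKM in the wild type (2.23). Krt7 was at 76.3 FPKM in the knockout and 17.1 FPKM in the wild type (2.09), and Krt19 alone was lower, at 0.307 FPKM in the knockout and 5.97 FPKM in the wild type. In a culture sequenced in bulk, fewer cells of a type and less RNA per cell cannot be told apart.

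Of 40 epithelial adhesion and junction genes, 12 passed the filter, and 9 of these were higher and none lower. Spint2, an inhibitor of matriptase, was at 188 FPKM in the knockout and 29.1 FPKM in the wild type (2.65). Perp, a desmosome protein, was at 163 FPKM in the knockout and 29.6 FPKM in the wild type (2.43). F11r, the tight-junction protein JAM-A, was higher by 2.03, and Jup, plakoglobin, at 56.9 FPKM in the knockout and 16.9 FPKM in the wild type. The mean of the 40 genes was 1.93 on log2(FPKM + 1) in the knockout and 1.27 in the wild type, below the 4.79 to 5.15 of lines 45566B, 46295 and 33373. Gata3, the transcription factor of luminal cells, was at 36.4 FPKM in the knockout and 5.25 FPKM in the wild type (2.58). Tfap2a and Trps1, also transcription factors of the mammary epithelium, were higher by 2.17 and 1.64, and 22 of the 27 listed epithelial factors did not reach 5 FPKM in either library.

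Transcription factors of epithelial-mesenchymal transition were mostly lower, 12 of the 16 of 20 that passed the filter, with a median of -2.45. Snai1 was at 0.845 FPKM in the knockout and 31.9 FPKM in the wild type (-4.16), and Prrx1 at 10.1 FPKM in the knockout and 159 FPKM in the wild type (-3.84). Twist1 was at 1.45 FPKM in the knockout and 34.6 FPKM in the wild type. Zeb1, a repressor of Cdh1, was at 9.91 FPKM in the knockout and 32.3 FPKM in the wild type (-1.61), and Zeb2 differed by -0.44. Foxc1 was the 1 higher member, at 30.1 FPKM in the knockout and 13.2 FPKM in the wild type. In line 45555 none of the 17 that passed the filter there reached a difference of 1, and in line 45566B none of 5 did.

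Most matrix genes lay far below the wild type. Of 43 collagen chains 20 passed the filter, and 15 were lower and 2 higher, with a median of -3.38 over those 20 and of -0.09 over all 43. Col1a1 was at 65.5 FPKM in the knockout and 1728 FPKM in the wild type (-4.70), and Col1a2 at 94.3 FPKM in the knockout and 2509.9 FPKM in the wild type (-4.72). Col3a1 was at 24.7 FPKM in the knockout and 738 FPKM in the wild type (-4.84). The basement-membrane pair Col4a1 and Col4a2 was lower by 3.47 and 2.93. Col8a1 and Col4a6 were the higher members, by 1.35 and 1.32. Lox, which crosslinks collagen, was at 68.8 FPKM in the knockout and 1518 FPKM in the wild type (-4.44), while the collagen chaperone Serpinh1 differed by -0.86. Of the 14 metalloproteinase and inhibitor genes that passed the filter 9 were lower, with Mmp2 at 41.3 FPKM in the knockout and 364 FPKM in the wild type. Mmp3, stromelysin, was higher at 50.5 FPKM in the knockout against 4.35 FPKM in the wild type (3.27).

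Fibroblast markers were lower in 14 of the 21 of 31 that passed the filter, and higher in 2. Pdgfra, a receptor of fibroblast progenitors, was at 22.4 FPKM in the knockout and 373 FPKM in the wild type (-4.00). Thy1 was at 0.440 FPKM in the knockout and 42.0 FPKM in the wild type (-4.90). Ly6a, the stem-cell antigen Sca-1, which interferon also induces, was at 26.8 FPKM in the knockout and 1175 FPKM in the wild type (-5.40). Clec3b, tetranectin, was listed at 0 in the knockout and at 37.6 FPKM in the wild type. Dcn and Igf1 were the higher members, by 1.11 and 1.80. The summed FPKM of all 31 was 1605 in the knockout and 5768 in the wild type. Over the 9 libraries it ran from 239 in line 46295 to that wild-type value.

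Not every mesenchymal gene was lower. Of 26 listed and kept, 13 were lower and 7 higher. Vim, vimentin, was at 1189 FPKM in the knockout and 2352 FPKM in the wild type (-0.98), and Fn1, fibronectin, differed by -0.06. Cdh2, N-cadherin, was at 123 FPKM in the knockout and 45.2 FPKM in the wild type (1.43). Ctgf was at 500.05 FPKM in the knockout and 122 FPKM in the wild type (2.03), and Spp1, osteopontin, at 1159 FPKM in the knockout and 166 FPKM in the wild type (2.79). Of 18 contractile genes 10 passed the filter, with 4 lower, none higher and a median of -0.49. Acta2, Tagln, Myl9 and Tpm2 were the lower ones, with Acta2 at 11.8 FPKM in the knockout and 108 FPKM in the wild type. The more abundant Tpm1, Flna and Cald1 differed by 0.74, 0.60 and 0.24. Acta2, Tagln, Myl9 and Tpm2 were higher in the knockout of line 45555, by 1.69 to 3.10.

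Adipocyte genes formed another lowered group, 10 of the 13 of 21 that passed the filter, with 1 higher. Fabp4, the fatty acid carrier of fat cells, was at 15.5 FPKM in the knockout and 885 FPKM in the wild type (-5.75). Pparg, the master regulator of fat cell formation, was at 2.23 FPKM in the knockout and 44.3 FPKM in the wild type (-3.81). Cebpa, its partner, was at 2.60 FPKM in the knockout and 26.4 FPKM in the wild type, and the hormone gene Adipoq at 0.0437 FPKM in the knockout and 12.6 FPKM in the wild type. Plin1, which coats lipid droplets, was listed at 0 in the knockout and at 6.96 FPKM in the wild type. Scd1, a desaturase also used by tumour cells, was higher at 267 FPKM in the knockout against 103 FPKM in the wild type. Immune markers were low in both libraries: none of the 20 found passed the filter, and they summed to 4.22 FPKM in the knockout and 2.73 FPKM in the wild type. Of 16 endothelial markers only Eng and Flt1 passed, both lower, by 2.79 and 2.04. In these 2 libraries most kept fibroblast and adipocyte markers were lower, as were most kept interferon-stimulated genes and part of the STAT3 targets. Epithelial adhesion genes went the opposite way. The part of cell composition in the interferon and STAT3 differences was not tested.

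**Figure D4:**
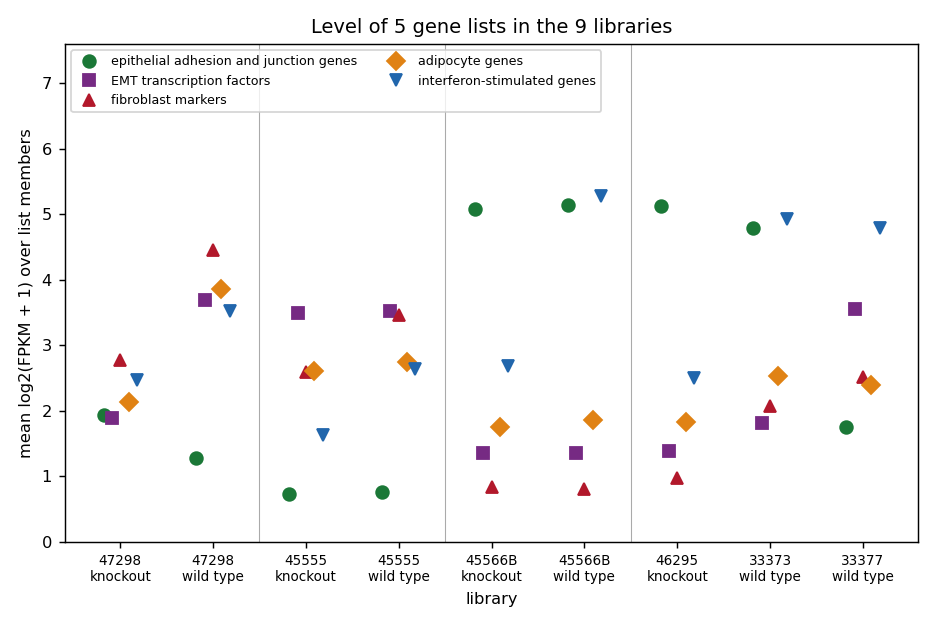
Points give the mean log2(FPKM + 1) over all members found of 5 gene lists in each of the 9 libraries. In line 47298 the knockout is below its wild type for fibroblast markers (2.77 against 4.46), adipocyte genes (2.14 against 3.86) and EMT transcription factors (1.89 against 3.69), and above it for epithelial adhesion genes (1.93 against 1.27).

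Integrin and laminin chains differed in both directions. Higher were Itga3, Itga6 and Itgb4, which bind epithelial basement membrane, with Itga3 at 169 FPKM in the knockout and 25.4 FPKM in the wild type (2.68). Itgb4 was at 25.5 FPKM in the knockout and 3.76 FPKM in the wild type (2.48), and its ligand chain Lama5 at 19.2 FPKM in the knockout and 3.03 FPKM in the wild type (2.32). Lower were Lama4 and Lama2, laminin chains of mesenchymal and muscle matrix, with Lama4 at 3.34 FPKM in the knockout and 147 FPKM in the wild type (-5.09). The collagen receptor Itga11 was lower by 3.07. Of the 17 that passed the filter, from 29 listed, 9 were higher and 5 lower.

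The driver oncogene of the tumours was higher in the knockout. Erbb2 was at 243 FPKM in the knockout and 37.6 FPKM in the wild type (2.66), and reads of the rat neu transgene cannot be told apart from those of mouse Erbb2 in these values. Across the other lines it ran from 7.84 FPKM in the 45555 wild type to 335 FPKM in the 45566B wild type. Hbegf and Areg, ligands of the epidermal growth factor receptor, were higher by 2.29 and 1.32. Egfr was lower, at 23.2 FPKM in the knockout and 50.2 FPKM in the wild type (-1.08). Output and feedback genes of the ERK pathway had no common direction: of 21 that passed the filter 2 were higher and 5 lower, and their median of -0.14 became 0.25 on the same-sum scale. Among growth factors, Igfbp3, a carrier of insulin-like growth factors, was at 2.91 FPKM in the knockout and 308 FPKM in the wild type (-6.30). Hgf, whose receptor is Met, was at 0.431 FPKM in the knockout and 22.9 FPKM in the wild type, while Met was at 19.1 FPKM in the knockout and 5.36 FPKM in the wild type.

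Ccnd1 was at 933 FPKM in the knockout and 166 FPKM in the wild type (2.48), and Ccnd2 at 5.87 FPKM in the knockout and 52.0 FPKM in the wild type (-2.95). Cdkn2a, which encodes the inhibitors p16 and p19ARF, was at 0.930 FPKM in the knockout and 33.3 FPKM in the wild type (-4.15). Cdkn2b, its neighbour on chromosome 4, was at 54.4 FPKM in the knockout and 29.3 FPKM in the wild type (0.87). Cdkn2a was listed at 0 in both libraries of lines 45555 and 45566B. DNA replication genes were slightly higher: of 32 of 40 that passed the filter all had positive differences, with 6 past 1 and a median of 0.68. Mcm2, a helicase subunit, was at 29.7 FPKM in the knockout and 11.3 FPKM in the wild type (1.32). Of 31 mitosis genes that passed the filter, 28 had positive differences but only Mad2l1 was past 1, with a median of 0.67. In line 45555 these medians were 1.37 and 0.98, and in line 45566B -0.09 and 0.33.

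Cholesterol synthesis genes were all above 0, and 7 of the 19 that passed the filter were called higher, with a median of 0.81. Msmo1, a sterol demethylase, was at 278 FPKM in the knockout and 77.7 FPKM in the wild type (1.82). Sqle, squalene epoxidase, was at 181 FPKM in the knockout and 60.4 FPKM in the wild type (1.57). Dhcr7, the last enzyme of the pathway, was higher by 1.76 and lies in the raised stretch of chromosome 7. Hmgcs1, an early enzyme, was at 70.0 FPKM in the knockout and 68.6 FPKM in the wild type. In line 45555 the list median was -1.67 and 17 of 19 kept members were lower.

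Several WNT ligands and BMP4 were higher while Sfrp1, Sfrp2 and Dkk3 were lower. Wnt7b was at 40.1 FPKM in the knockout and 5.47 FPKM in the wild type (2.67), and Wnt10a at 122 FPKM in the knockout and 22.8 FPKM in the wild type (2.37). Axin2, a feedback target of beta-catenin, was at 11.8 FPKM in the knockout and 1.66 FPKM in the wild type (2.26). Sfrp2, which binds WNT ligands, was at 0.200 FPKM in the knockout and 62.0 FPKM in the wild type (-5.71), and Dkk3 was lower by 2.53. Of 14 WNT genes that passed the filter 7 were higher and 5 lower. Their median of 0.65 became -0.33 when 10 FPKM in either library was required. Bmp4 was at 63.5 FPKM in the knockout and 8.05 FPKM in the wild type (2.83), and Ltbp1, which stores latent TGF-beta in the matrix, at 244 FPKM in the knockout and 37.7 FPKM in the wild type (2.66).

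Near the top of the ranking, Msln, mesothelin, was at 467 FPKM in the knockout and 52.4 FPKM in the wild type (3.13). Tinagl1, a basement-membrane protein on chromosome 4, was at 337 FPKM in the knockout and 34.2 FPKM in the wild type (3.26). Ano1 was at 207 FPKM in the knockout and 14.4 FPKM in the wild type (3.75), and Itih2, a hyaluronan-binding serum protein, at 446 FPKM in the knockout and 40.8 FPKM in the wild type (3.42). At the other end lay Cyp1b1, a cytochrome of hormone and drug metabolism, at 1.01 FPKM in the knockout and 141 FPKM in the wild type (-6.14), and Apod, a lipid carrier, at 0.0749 FPKM in the knockout and 73.7 FPKM in the wild type (-6.12). The lowest symbol of all, DQ267102, was listed at 0 in the knockout and at 141 FPKM in the wild type. It is annotated as a small nucleolar RNA gene, too short for its FPKM to be read as a level.

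The differences were set beside those of lines 45555 and 45566B, which share no library with 47298. With the same filter 578 genes were lower in the 45555 knockout (6.51% of 8884) and 170 in the 45566B knockout (1.95% of 8705). Of the 1106 genes lower in 47298, 206 were also lower in 45555, which is 18.6% of the 47298 genes and 35.6% of the 45555 genes. With 45566B 40 were shared, 3.62% of the 47298 genes and 23.5% of the 45566B genes. Higher genes were fewer in the other lines, 309 (3.48%) in 45555 and 40 (0.46%) in 45566B, and 35 and 8 of these were higher in 47298 too. The 35 are 4.26% of the 821 genes higher in 47298, beside 3.48% of all genes kept in 45555, and the 8 are 0.974%, beside 0.46% in 45566B. More of the 821 were lower in the other lines, 51 in 45555 and 15 in 45566B. Lower genes were also the more common ones there, at 6.51% and 1.95% of all kept genes. These counts therefore do not by themselves show an opposite direction. For the genes lower in 47298 the median difference was -0.43 in 45555 and 0.01 in 45566B. For those higher in 47298 it was -0.04 in 45555 and -0.03 in 45566B. Some genes lower in 47298, such as Pparg and Prrx1, were near 0 in both 45566B libraries and could not be lower there.

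**Figure D5:**
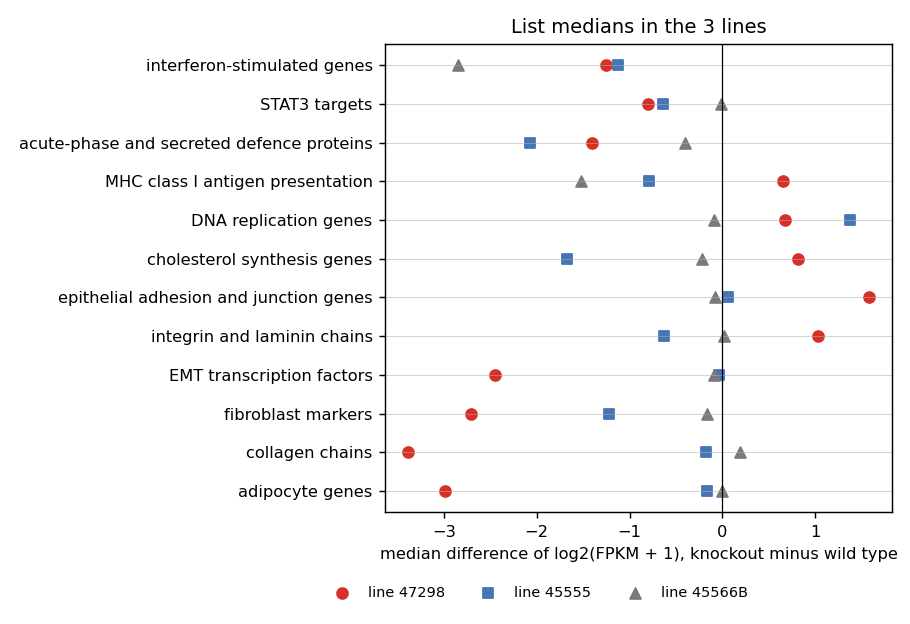
Markers give the median difference of log2(FPKM + 1), knockout minus wild type, over the members of each list kept in that line, for lines 47298, 45555 and 45566B. Interferon-stimulated genes lie below 0 in all of them (-1.25, -1.13 and -2.85), whereas collagen chains, adipocyte genes and EMT transcription factors lie far below 0 in line 47298 alone among these lines. The 45566B medians leave out members near 0 in both of its libraries, which could not be lower there. Examples are Pparg (0.376 FPKM in the knockout, 0.342 in the wild type) and Prrx1 (0.131 and 0.142).

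For the next comparison the 5 FPKM filter was required in 47298 only, so levels in the other lines can be low. Of the 217 genes higher and 511 lower by 2 or more in 47298, 13 differed by at least 1 the same way in both other lines. They were Ifi202b, Ifi203, Ifi204, Mndal and AI607873 of the Ifi200 cluster on chromosome 1, together with Ifi27l2a, Ifitm3, Oasl2, Sp100, Trim30a, Ly6a and Plac8, all lower, and Pcolce2, a collagen-processing enhancer, which was higher. The share of all kept genes that moved alike in both other lines was not counted, so the 13 cannot be judged against it. Singly, 6.51% of kept genes were lower in 45555 and 1.95% in 45566B. The Ifi200 genes resemble each other in sequence and may not be separate cases. Plac8 was at 11.4 FPKM in the 47298 knockout and 628 FPKM in its wild type (-5.66), and it differed by -1.25 in 45555 and -1.06 in 45566B. In line 45555 Plac8 was below the filter, at 0 FPKM in the knockout and 1.38 FPKM in the wild type. AI607873 was below it in 45566B, at 0.617 FPKM in the knockout and 2.24 FPKM in the wild type. Pcolce2 was at 53.6 FPKM in the knockout and 8.74 FPKM in the wild type of 47298 (2.49), with differences of 2.66 in 45555 and 1.10 in 45566B. Mlana and Slc2a6 went the other way, and were lower by at least 1 in both other lines. In line 45555 Mlana was below the filter, at 0 FPKM in the knockout and 2.86 FPKM in the wild type. In 47298 Mlana was at 8.22 FPKM in the knockout and 0.937 FPKM in the wild type, and Slc2a6, a sugar transporter family member, at 22.8 FPKM in the knockout and 4.57 FPKM in the wild type. No test of a difference between lines could be made with 1 library per state in each.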

How the data were processed

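The values are FPKM per gene symbol, deposited by the authors for 9 libraries. Per the submitters' processing notes, cutadapt, TopHat2 2.1, Cufflinks 2.2 and Cuffnorm were used on build mm10. The notes give no order, scaling option or annotation. Whether strand was kept is unknown, so reads of antisense or overlapping genes may be mixed. Per the labels' protocols, RNA was extracted with RNeasy columns, reverse transcribed with oligo-dT primers and made into libraries with a TruSeq kit. A smaller deposited table held some of the same columns with identical FPKM. Of 24346 rows, 4 with repeated names were left out, and 1286 short noncoding RNA symbols were excluded.

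Log2(FPKM + 1) was computed from the deposited FPKM with Python 3.11.15, pandas 2.3.3 and scipy 1.17.1, and calls were made at a difference of 1. Low values were read as whole multiples of 1 fragment. Of these, 76.9% in the knockout and 77.0% in the wild type lay within 15% of a step, over 1157 and 1012 values. The lengths behind the steps are from GENCODE, so fragment numbers are estimates. They gave exact binomial 95% intervals for counting error only. The calculation was checked on simulated data.

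Text genes are Jak1, the 15 highest and lowest, the largest and most abundant members of 44 lists, some fixed markers, and genes that moved alike or oppositely in all 3 lines. A few others were named after their values were seen. Some genes that the rule names are not reported here. The members and lists were chosen with earlier results of these data known. Beside 9 other settings, 1 was added after seeing the data.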

Additional observations from a re-analysis of the deposited data

Results flagged for a closer look

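MHC class I antigen presentation genes had a median difference of 0.65 in line 47298, against -0.79 in line 45555 and -1.52 in line 45566B. Cholesterol synthesis genes had a median difference of 0.81 in line 47298, against -1.67 in line 45555 and -0.22 in line 45566B. Each list had the opposite sign in 47298 from that in both other lines. With 1 library per state in each line, these differences between lines were not tested.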

How the results depend on the processing

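Over the alternatives other than the same-sum scale, the higher genes numbered 648 to 1017 and the lower ones 886 to 1410, against 821 and 1106 as reported. Rescaling both libraries to the same sum without short noncoding RNA genes gave 1588 higher and 742 lower genes, and 31.8% of called genes were then lower, against 57.4% as reported. That scale moves every gene by a common factor. On it Jak1 was at -0.79, short of the threshold of 1. The list medians of pathway inhibitors, ERK output genes and cell-cycle regulators changed sign, to 0.19, 0.25 and 0.37. Centring on chromosome medians, added after seeing the data, moved Jak1 to -0.64. Several list medians also depended on the 5 FPKM filter. Without it, epithelial adhesion genes went from 1.58 to 0.29 and fibroblast markers from -2.71 to -0.94. Metalloproteinases and inhibitors went from -1.93 to -0.35, JAK and STAT genes from -1.07 to -0.73, and acute-phase proteins from -1.40 to 0. The members then added include genes near 0 in both libraries. No named gene with a difference past 1 changed sign under any alternative run. No paired analysis was possible because the comparison is within line 47298, with 1 library of each state, and no library could be left out. A difference between cultures of 1 state cannot be estimated.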

Other observations

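Of 22 genes listed as imprinted or as X or Y chromosome genes, 9 passed the filter in line 47298, and 7 of these, all imprinted, were lower and none higher. The median was -3.52 over those 9 and -0.43 over all 22. Peg10, a retrotransposon-derived gene, was at 0.0487 FPKM in the knockout and 30.1 FPKM in the wild type (-4.89), and its neighbour Sgce at 4.82 FPKM in the knockout and 82.9 FPKM in the wild type (-3.85). Meg3 and Rian, noncoding RNAs of 1 cluster on chromosome 12, were lower by 3.52 and 4.24, and Plagl1, Ndn and Cdkn1c by 4.01, 3.48 and 2.79. Snrpn was at 12.1 FPKM in the knockout and 9.73 FPKM in the wild type. In lines 45555 and 45566B none of the listed imprinted genes that passed the filter there reached a difference of 1. Of the genes lowered in 47298, however, only Peg10, Sgce and Ndn passed it in 45555 and none did in 45566B. Most of them were near 0 in both 45566B libraries and could not be lower there. Below the filter, Rian differed by -1.10 in 45555, at 0.779 FPKM in the knockout and 2.83 FPKM in the wild type.

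Positional homeobox genes went both ways. Hoxc6 was at 3.66 FPKM in the knockout and 22.6 FPKM in the wild type (-2.34), and Hoxc8, Hoxb7 and En1 were lower by 2.71, 2.80 and 3.28. Hoxb9 was at 33.8 FPKM in the knockout and 4.63 FPKM in the wild type (2.63), and Irx3 and Irx2 were higher by 2.02 and 1.52. Among retinoid and aldehyde enzymes, Aldh3a1 was at 292 FPKM in the knockout and 52.3 FPKM in the wild type (2.46), and Dhrs9 at 137 FPKM in the knockout and 25.6 FPKM in the wild type (2.37). Aldh1a7 was lower, at 40.6 FPKM in the knockout and 271 FPKM in the wild type (-2.71).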
